A study of Mus musculus with 6 samples.

Results

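Autophagy encloses cytoplasm, damaged organelles or protein aggregates in a double membrane, the autophagosome, which then fuses with a lysosome. The ULK kinase complex starts the process, a class III PI3-kinase complex marks the site with a lipid, and a ubiquitin-like conjugation system fixes the small ATG8 proteins (the LC3 and GABARAP families) to the membrane, where cargo receptors bind them. In melanocytes the same proteins have been linked to the formation and turnover of melanosomes, and nutrient and growth factor signals restrain the pathway through mTORC1. A set of 44 genes of this machinery and its receptors was followed, chosen by symbol: each probe set had to be paired with 1 gene symbol, and the brightest over the 6 arrays stood for its gene. Of the 44, 42 were measured, out of 19938 genes tested in all, and the other two were not analysed here.

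The cells were Melan-Ink4a, an immortal melanocyte line from the skin of C57BL/6J mice, and both groups carried the genotype Ink4a-ARF1 null. The treated group was kept in 10 nM NRG1-b1, the growth factor neuregulin 1 that binds the receptor ERBB3, for 21 days, and the other group was untreated, with no matching time in the labels. Cells of both groups were grown with TPA, a phorbol ester, at 200 nM and with cholera toxin at 200 pM, and were lysed for RNA when 90% confluent. Each group had 3 Affymetrix Mouse Gene 1.0 ST arrays of this 1 cell line, and the labels do not name separate cultures, so the p-values rest on a spread between samples that may be only technical. Values are the deposited log2 levels, and a difference is always NRG1 minus untreated. "Called", "rose" and "fell" are used where limma's adjusted p over all genes tested was under 0.05. The arrays measured transcripts and not autophagic flux, and in bulk RNA fewer cells with a transcript cannot be told apart from less of it per cell.

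Array medians over the genes tested ran from 7.11 to 7.19, and arrays correlated at 0.996 to 0.997 within a group and at 0.981 to 0.986 between groups. All 9 melanocyte markers examined were above the highest array median in mean level, and 8 of them fell. Of 21 markers of keratinocytes, fibroblasts, immune and endothelial cells, 3 were above that median (Col1a1, Col1a2 and Cd68), 2 rose (Col1a1 by 0.86 and Cd68 by 0.23) and 0 fell. The summed fibroblast markers, on a log2 scale, ran from 10.02 to 10.13 with NRG1 and from 9.74 to 9.90 without, and of these 6 markers Col1a1 alone was higher with NRG1. Col1a2 was at -0.27 (limma, adjusted p = 0.0551), Thy1 at -0.15 with means of 6.82 and 6.97, and Pdgfra, Dcn and Lum were between -0.11 and -0.028 with means of at most 6.44 in either group. The summed immune markers ran from 8.92 to 8.95 and from 8.77 to 8.91. The part of these markers in the results below was not tested.

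Of the 42 autophagy genes, 6 fell, 1 rose and 35 were not called. Over all genes tested, 20.9% were called (12.3% higher and 8.56% lower), against 16.7% of the autophagy genes (2.38% higher and 14.3% lower). The autophagy genes were chosen with earlier results of these data known, so comparisons of their shares with other genes describe this list only. All 42 autophagy genes had a mean above the highest array median, and of the 9891 genes that did, 33.4% were called (20.5% higher and 12.9% lower). How the share called compared with that of all genes turned with the processing: quantile normalization gave 12 falls and 1 rise (31% of the autophagy genes called, against 21.9% of all genes), and an intensity trend with a robust prior 11 falls and 1 rise (28.6% against 24.4%). With genes under the median level left out, 12 fell and 1 rose (31%), against 43.9% of the genes then tested (17.8% lower and 26% higher). The genes that fell were Gabarapl1, Pink1, Calcoco1, Uvrag, Atg14 and Gabarap, and the gene that rose was Rubcn. The largest difference was a 1.39-fold fall, and no autophagy gene reached 1.5-fold, a size that 5.04% of all genes reached. The median absolute difference was 0.104 for the autophagy genes and 0.103 for all genes. The median signed difference was -0.090 for the autophagy genes and -0.029 for all genes, with 30 of the 42 below 0 (71.4%, against 58.3% of all genes and 48.1% of those above the highest array median). For 23 of the 35 genes not called, the 95% interval of the difference lay within 1.2-fold either way, and over the 35 its bounds reached -0.38 and 0.27.

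**Figure D1:**
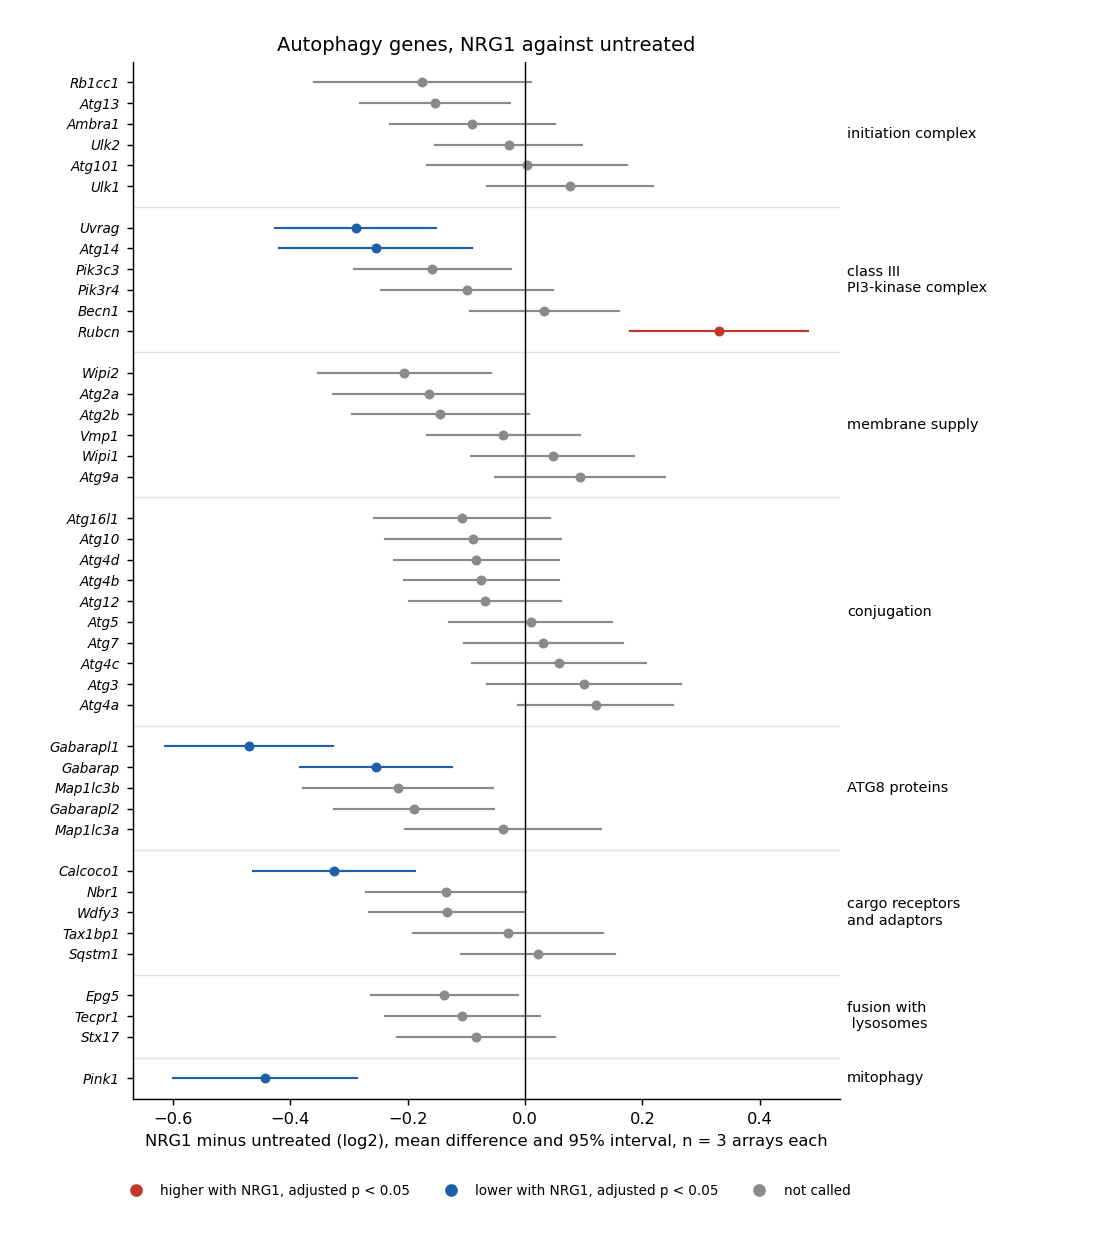
Difference between NRG1 and untreated cells for the 42 autophagy genes by role, as NRG1 minus untreated on the log2 scale with the 95% interval (n = 3 arrays each). The 6 genes that fell and the 1 that rose are coloured, and the other 35 lie between -0.22 and 0.12.

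**Figure D2:**
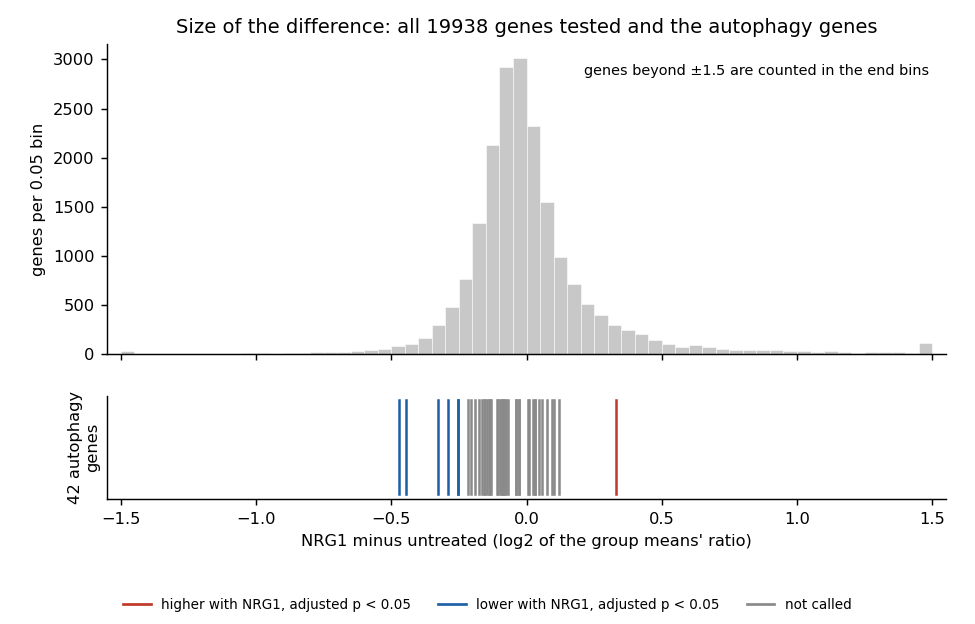
Differences of all 19938 genes tested (upper panel, genes per bin of 0.05 on the log2 scale) above those of the 42 autophagy genes (lower panel, 1 line per gene). The autophagy genes end at -0.47 and 0.33, whereas 6.93% of all genes had a larger absolute difference than Gabarapl1.

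One array bears on all of these values. Untreated replicate 2 was the highest of the 3 untreated arrays for 32 of the 42 autophagy genes (76.2%), against 38.1% of all genes tested and 59.9% of those above the highest array median. The autophagy genes sat on average 0.054 above their group mean in that array, and all genes 0.012 below. Without it, 5 autophagy genes fell and 1 rose (14.3% called, 11.9% lower), against 22.1% of all genes called (9.03% lower and 13% higher). The same 5 falls and 1 rise were counted without any 1 of the NRG1 arrays or without untreated replicate 3, so this drop was not particular to untreated replicate 2. Without untreated replicate 1, 7 fell and 1 rose. The median difference without untreated replicate 2 was -0.064, against -0.044 for all genes. The 3 NRG1 values lay entirely below the 3 untreated values for 20 of the 42 genes and entirely above for 3. Groups did not overlap for 54.8% of the autophagy genes and for 36.7% of all genes (18.1% with NRG1 below and 18.6% with NRG1 above). Of the 9891 genes above the highest array median, 54.1% had groups apart, 2299 with NRG1 below and 3050 with NRG1 above. A single gene tested by exact permutation of 3 arrays against 3 cannot go below p = 0.1.

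None of the 6 genes of the initiation step was called by limma, and 1 of them, Atg13, had an unadjusted p under 0.05. Ulk1 and Ulk2 encode the kinases that start autophagosome formation, and their differences were 0.077 ± 0.063 and -0.028 ± 0.056 (SE). Atg13, Rb1cc1 (FIP200) and Atg101 encode the other subunits of the complex. Atg13 stood at 9.41, 9.41 and 9.38 with NRG1 and at 9.54, 9.59 and 9.52 without. Its groups did not overlap, but the difference of -0.15 was not called (limma, adjusted p = 0.0922; 15 alternative processing settings gave 0.0202 to 0.235, and 4 of them called it). Rb1cc1 was at -0.18 and Atg101 at 0.0039, with overlapping groups for both. Ambra1, whose product links the kinase complex to Beclin 1, was at -0.090.

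The 6 class III PI3-kinase genes held 3 of the 7 calls, in both directions. That was 50% called, against 20.9% of all genes tested and 33.4% of those above the highest array median. The core subunits were not called: Becn1 (Beclin 1) differed by 0.033, Pik3c3 (the lipid kinase VPS34) by -0.16 (called under 4 of the 15 settings) and Pik3r4 (VPS15) by -0.099. Uvrag and Atg14 encode alternative partners of Beclin 1, ATG14 for the complex that forms autophagosomes and UVRAG for the one that acts on endosomes and autophagosome maturation. Uvrag stood at 9.10, 9.08 and 9.10 with NRG1 and at 9.40, 9.45 and 9.30 in untreated cells. The NRG1 arrays were nearly identical and all below the untreated ones, and Uvrag fell by 0.29 ± 0.062 (SE; 1.22-fold; limma, adjusted p = 0.00725). Atg14 stood at 7.60, 7.60 and 7.58 with NRG1 and at 7.72, 7.99 and 7.83 without. The groups did not overlap, the untreated arrays were spread more widely, and Atg14 fell by 0.25 ± 0.074 (SE; 1.19-fold; limma, adjusted p = 0.0338). This was the weakest of the calls: it ended under 8 of 15 alternative settings, with adjusted p from 0.00858 to 0.0954. It ended without any 1 of the 3 NRG1 arrays (adjusted p = 0.0808, 0.0755 and 0.0954 without replicates 1, 2 and 3), with the difference nearly as before, at -0.26, -0.26 and -0.25. It also ended without untreated replicate 2 (-0.18, adjusted p = 0.0694) or untreated replicate 3 (-0.26, adjusted p = 0.0691).

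Rubcn, which encodes Rubicon, an inhibitor of the UVRAG-containing complex and of autophagosome maturation, was the only autophagy gene of the 42 that rose. It stood at 8.88, 8.90 and 8.79 with NRG1 and at 8.43, 8.60 and 8.55 in untreated cells. Every NRG1 array was above every untreated array, and the rise was 0.33 ± 0.068 (SE; 1.26-fold; limma, adjusted p = 0.00602). It was called under all 15 alternative settings, with adjusted p from 0.000659 to 0.0322.

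**Figure D3:**
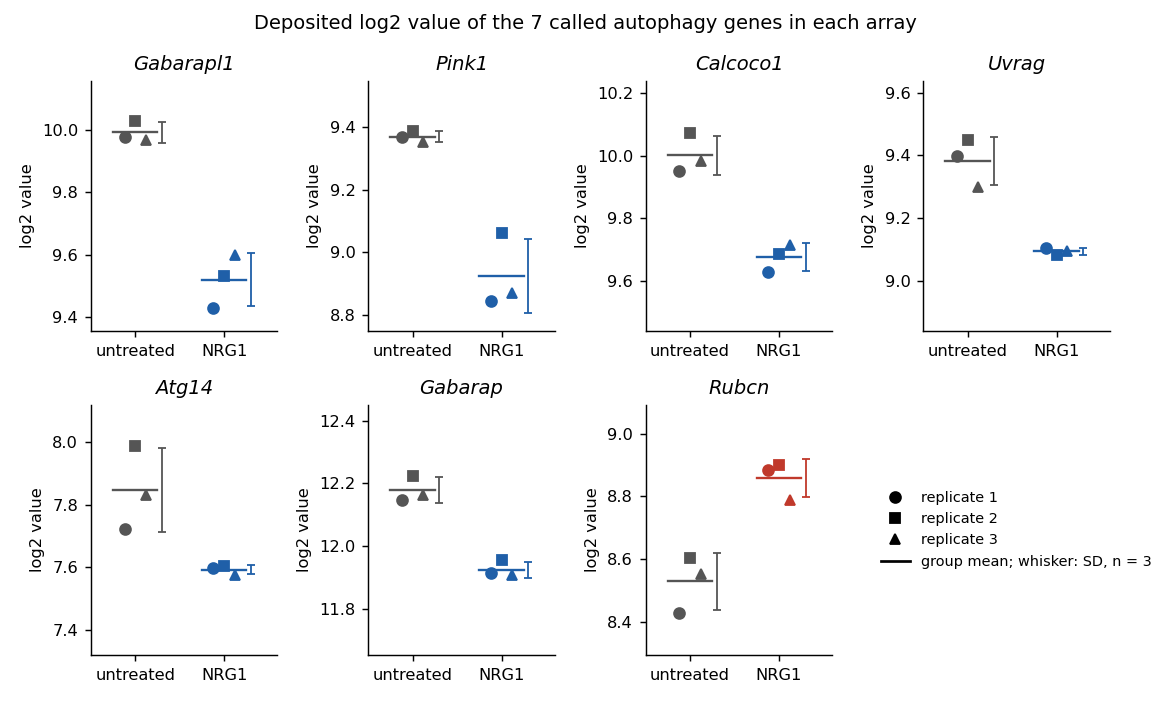
Deposited log2 value of each called autophagy gene in each of the 6 arrays; every panel spans 0.8 on the log2 scale, lines are group means and whiskers SD (n = 3). In all 7 panels the groups do not overlap, with Rubcn alone higher with NRG1, and the square of untreated replicate 2 is the highest untreated point.

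MITF, TFEB and TFE3, the MiT/TFE transcription factors, bind E-boxes with the letters CACGTG at many lysosomal and autophagy genes. Mitf itself fell by 0.53 ± 0.057 (SE; limma, adjusted p = 8.50e-05), while Tfeb (-0.079) and Tfe3 (0.0016) were not called. RefSeq promoter windows of assembly GRCm38.p6, from 250 bases before to 50 bases after each start, were available for 34 of the 42 genes, and both strands were searched. CACGTG, which reads the same on both strands, was found for 5 of these 34 (14.7%), against 8.09% of all genes with a window. A FOXO site, GTAAACA, was found for 0 of the 34, against 4.05% of all genes. The 5 genes with CACGTG were Atg14 (which fell), Rubcn (which rose) and the conjugation genes Atg3, Atg5 and Atg7 (not called). Their matches are shown because genes that fell, rose and were not called all hold the same letters. Each line gives 30 bases of the gene's strand, 5′ to 3′, with CACGTG in capitals, and Atg3 holds 2 matches.
Atg14, chr14:47568418-47568447, minus strand: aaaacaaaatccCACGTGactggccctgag
Rubcn, chr16:32868437-32868466, minus strand: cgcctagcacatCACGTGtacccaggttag
Atg3, first match, chr16:45158723-45158752, plus strand: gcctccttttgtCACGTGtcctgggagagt
Atg3, further match, chr16:45158746-45158775, plus strand: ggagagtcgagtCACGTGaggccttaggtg
Atg5, chr10:44268313-44268342, plus strand: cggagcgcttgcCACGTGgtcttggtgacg
Atg7, chr6:114670952-114670981, plus strand: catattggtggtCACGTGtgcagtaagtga
The Atg14 match spans the start site, beginning 1 base before it, and the Rubcn match begins 88 bases before 1 of the gene's starts. CACGTG was not found for the other 5 called genes. Only 34 of the 42 genes had a window, and which of these 5 did is not given here. A called gene without a match may therefore not have been searched. A match is a description of these letters and not evidence of binding.

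None of the 6 genes that supply the membrane was called by limma, and 1, Wipi2, had an unadjusted p under 0.05. ATG2A and ATG2B carry lipids to the growing membrane, and their genes were at -0.16 and -0.14. Atg9a, for the scramblase on the seed vesicles, was at 0.094, and Vmp1, for an ER scramblase, at -0.037. WIPI1 and WIPI2 read the lipid made by VPS34. Wipi1 differed by 0.047, and Wipi2 stood at 8.86, 8.93 and 8.83 with NRG1 and at 9.03, 9.18 and 9.03 without. Its groups did not overlap and the difference of -0.21 ± 0.066 (SE) missed the threshold narrowly (limma, adjusted p = 0.0514; the 15 settings gave 0.0129 to 0.156, and 5 of them called it).

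Limma called 0 of the 10 conjugation genes, whose differences ran from -0.11 to 0.12. None of the 10 reached an unadjusted p under 0.05, whereas 32% of all genes tested did. Atg7, for the E1 enzyme that activates the ATG8 proteins and ATG12, was at 0.031 ± 0.061 (SE), with a 95% interval from -0.10 to 0.17. Atg3 and Atg10, for the E2 enzymes, were at 0.10 and -0.089. Atg5, Atg12 and Atg16l1, whose products form the complex that places ATG8 proteins on the membrane, were at 0.0095, -0.068 and -0.11. The 4 proteases that process ATG8 proteins had differences of 0.12 (Atg4a), -0.074 (Atg4b), 0.058 (Atg4c) and -0.083 (Atg4d). Atg4a had another probe set with a difference of 0.12 and the same listed accessions. RefSeq lists 1 pseudogene named after Atg4a, so which copy each probe set reads is uncertain.

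All 5 genes of the ATG8 proteins had a difference below 0, and 2 of them fell. Of all genes tested, 58.3% were below 0 and 8.56% fell, and of those above the highest array median 48.1% and 12.9%. Untreated replicate 2 was the highest untreated array for all 5, against 38.1% of all genes tested and 59.9% of those above the highest array median. Gabarapl1 had the largest difference of the 42 genes, with 9.43, 9.53 and 9.60 under NRG1 and 9.98, 10.03 and 9.97 in untreated cells. The groups were far apart relative to their spread, at 9.52 ± 0.0842 and 9.99 ± 0.0331 (SD, n = 3 each; limma, adjusted p = 0.00043). Gabarapl1 fell by 0.47 ± 0.064 (SE), or 1.39-fold, and was called under all 15 settings, with adjusted p from 4.71e-06 to 0.00428. Gabarap stood at 11.91, 11.95 and 11.91 with NRG1 and at 12.15, 12.23 and 12.16 without. Its arrays agreed closely within each group, and it fell by 0.25 ± 0.058 (SE; 1.19-fold; limma, adjusted p = 0.0102, from 0.000122 to 0.043 over the settings). Gabarapl2, for the relative also known as GATE-16, stood at 9.89, 9.84 and 9.90 with NRG1 and at 10.03, 10.14 and 10.03 without. Its groups did not overlap, but the difference of -0.19 was not called (limma, adjusted p = 0.0533; the 15 settings gave 0.00699 to 0.635, and 5 of them called it).

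Map1lc3b, for LC3B, the protein most used to mark autophagosomes, stood at 10.31, 10.23 and 10.19 with NRG1 and at 10.35, 10.58 and 10.45 without. The NRG1 arrays were all below the untreated ones, the nearest by a small margin, and the difference of -0.22 ± 0.073 (SE) was not called (limma, adjusted p = 0.0616; the 15 settings gave 0.0113 to 0.182, and 5 of them called it, among them the fit without untreated replicate 1, at -0.27 and adjusted p = 0.0481). Its other probe set gave -0.24. Map1lc3a (LC3A) was at -0.038 with overlapping groups. The dimmer probe set of Gabarapl2 had a mean of 6.55 and a difference of 0.077, opposite in sign to the brighter one, and with both averaged the difference was -0.056. RefSeq lists 6 pseudogenes named after Gabarapl2 and 6 named after Map1lc3, so the source of the signal is uncertain for Gabarapl2 and Map1lc3b. Gabarapl1 and Gabarap each had 1 probe set.

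Among 5 cargo receptors and adaptors, 1 fell (20%, against 8.56% of all genes tested and 12.9% of those above the highest array median). Calcoco1, for a receptor of ER and Golgi membranes, stood at 9.63, 9.69 and 9.71 with NRG1 and at 9.95, 10.07 and 9.98 in untreated cells. The groups were clearly apart, and it fell by 0.33 ± 0.062 (SE; 1.25-fold; limma, adjusted p = 0.00369, from 0.000143 to 0.0188 over the settings). Sqstm1, for p62, the receptor of ubiquitylated cargo that is itself degraded by autophagy, stood at 12.31, 12.30 and 12.30 with NRG1 and at 12.24, 12.34 and 12.26 without. Its groups overlapped, and the difference of 0.022 had a 95% interval from -0.11 to 0.15. Nbr1, for a receptor related to p62, was at -0.13 (limma, adjusted p = 0.161), Tax1bp1, for another receptor of ubiquitylated cargo, at -0.029 and Wdfy3, for the scaffold ALFY that brings aggregates to the membrane, at -0.13. A dimmer probe set of Wdfy3 gave 0.039.

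The 3 genes of fusion with lysosomes were not called by limma, and 1, Epg5, had an unadjusted p under 0.05. Epg5, for a tether between autophagosomes and late endosomes, was at -0.14, Tecpr1, for a tethering protein of the lysosomal side, at -0.11 and the SNARE gene Stx17 at -0.083. Pink1, for the kinase that accumulates on damaged mitochondria and marks them for removal, stood at 8.84, 9.06 and 8.87 with NRG1 and at 9.37, 9.39 and 9.35 without. The untreated arrays were tight and all above the NRG1 arrays, whose replicate 2 was the highest. Pink1 fell by 0.44 ± 0.07 (SE; 1.36-fold; limma, adjusted p = 0.00117, from 3.43e-05 to 0.00907 over the settings).

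**Figure D4:**
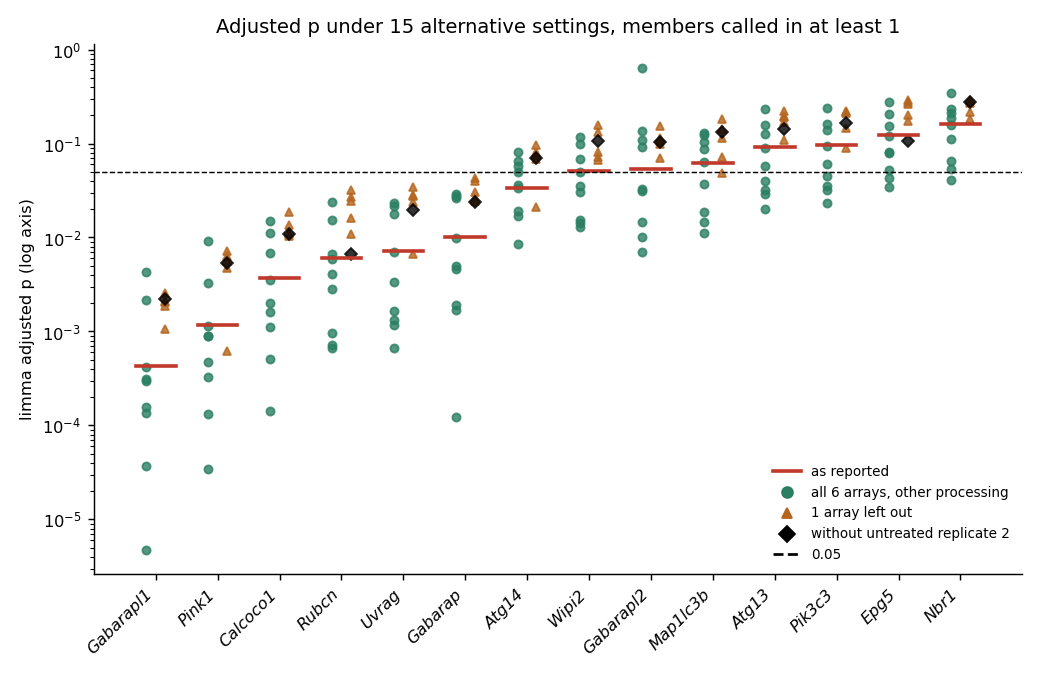
Limma adjusted p (log axis) of the 14 autophagy genes called under at least 1 of 15 alternative settings or as reported; circles keep all 6 arrays, triangles leave out 1 array, diamonds leave out untreated replicate 2, and the dashed line is 0.05. The 6 genes from Gabarapl1 to Gabarap stay below the line throughout, while Atg14 and the 7 genes to its right have points on both sides.

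A further 68 genes around the core machinery, in 5 lists, held calls in both directions. Of the 68, 11 rose (16.2%) and 13 fell (19.1%), with a median difference of -0.045. Of all genes tested, 12.3% rose and 8.56% fell, and of those above the highest array median 20.5% and 12.9% did. The lists were chosen with earlier results of these data known. Their shares therefore cannot show whether genes of the pathway were called more often than others. Untreated replicate 2 was the highest untreated array for 76.5% of the 68 genes. In the list of further core and membrane genes, 2 of 14 rose and 1 fell. Sh3glb1, for the membrane-bending endophilin B1 that binds the UVRAG and Beclin 1 complex, rose by 0.48 ± 0.067 (SE; limma, adjusted p = 0.00049). Trp53inp2, for a protein that binds ATG8 proteins, rose by 0.39, and Wdr45, for the WIPI-family protein WIPI4, fell by 0.33 (limma, adjusted p = 0.00424).

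Of 10 receptors and regulators of mitophagy, 2 rose, 1 fell and 7 were not called. For this list and the next, the shares of all genes tested were 12.3% risen and 8.56% fallen. Above the highest array median they were 20.5% and 12.9%. Bnip3, for a mitochondrial outer membrane receptor induced by low oxygen, stood at 8.84, 8.58 and 8.69 with NRG1 and at 6.87, 7.22 and 6.94 without. The groups were far apart, and the rise was 1.69 ± 0.099 (SE), with a limma adjusted p of 1.13e-06. That was the largest difference among the 110 genes of the core set and the added lists together. With both probe sets of Bnip3 averaged the rise was 1.19, below the 1.22 of Deptor, so this rank depends on the probe set used. Bnip3l (NIX), the paralogue of Bnip3, was at 0.0028, with a 95% interval from -0.13 to 0.13. Bcl2l13 and Fundc1 encode further outer membrane receptors. Bcl2l13 rose by 0.28, with a limma adjusted p of 0.0103 that became 0.0507 (difference 0.26) when untreated replicate 1 was left out, and Fundc1 fell by 0.33 (limma, adjusted p = 0.00974). Of 8 ER-phagy and other receptors, 3 fell and 0 rose. Ccpg1 stood at 9.07, 9.15 and 9.03 with NRG1 and at 9.58, 9.73 and 9.49 without, and Retreg1 (FAM134B) at 9.06, 9.13 and 9.20 against 9.60, 9.71 and 9.56. Both ER-phagy receptors had groups far apart, with falls of 0.52 ± 0.074 and 0.49 ± 0.067 (SE; limma, adjusted p = 0.000639 and 0.000438). Tollip, for a ubiquitin-binding adaptor, fell by 0.19, a call that ended under 9 of 15 settings. These included the fits without any 1 of the 6 arrays, with differences from -0.21 to -0.16 and adjusted p from 0.0723 to 0.132.

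Among 12 genes of fusion and tethering, 4 fell and 1 rose. Of all genes tested, 8.56% fell and 12.3% rose, and of those above the highest array median 12.9% and 20.5%. Untreated replicate 2 was the highest untreated array for 10 of the 12. Vps11 and Vps16, for core subunits shared by the HOPS and CORVET tethers, fell by 0.34 ± 0.058 and 0.30 ± 0.063 (SE; limma, adjusted p = 0.00207 and 0.00674). Vps41, for a HOPS subunit, fell by 0.26, with a limma adjusted p of 0.0152 that became 0.0602 (difference -0.24) when NRG1 replicate 1 was left out. Snap29, for a SNARE that pairs with syntaxin 17, fell by 0.23, a call that ended under 8 of 15 settings. Only untreated replicate 3 could be left out without ending it; the other 5 such fits gave -0.25 to -0.19 with adjusted p from 0.0509 to 0.0956. Vps18, Vps33a and Vps39, for other subunits of these tethers, were not called, with differences from -0.088 to -0.045. Ykt6, for a SNARE that can act in place of syntaxin 17, rose by 0.37 ± 0.07 (SE; limma, adjusted p = 0.00345).

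Of 24 upstream kinases and regulators, 6 rose (25%) and 4 fell (16.7%). Among all genes tested 12.3% rose and 8.56% fell, and among those above the highest array median 20.5% and 12.9%. Deptor, for an inhibitor that binds mTOR, stood at 10.00, 10.19 and 10.15 with NRG1 and at 8.83, 8.94 and 8.92 without. The groups were more than 1 log2 unit apart, a rise of 1.22 ± 0.069 (SE; limma, adjusted p = 8.63e-07). Mtor, Rptor and Mlst8, for mTORC1 subunits, were at -0.0050, 0.086 and 0.043 and not called. Rheb, for the GTPase that activates mTORC1, rose by 0.41, and Tsc1, for part of the complex that switches RHEB off, fell by 0.21. The Tsc1 call ended under 9 of 15 settings, among them the fits without any 1 of the 6 arrays (-0.23 to -0.19, adjusted p from 0.0547 to 0.114). Ddit4 (REDD1), a stress-induced inhibitor of the same route, rose by 0.43. The sestrin genes split, with Sesn2 up by 0.26 and Sesn1 and Sesn3 down by 0.40 and 0.74. The Sesn2 call ended under 7 of 15 settings, among them every fit without 1 array except that without untreated replicate 2 (0.22 to 0.28, adjusted p from 0.0544 to 0.113). Of the AMP-activated kinase subunits, Prkag1 rose by 0.22, a call that ended in all fits without 1 array other than untreated replicate 2 (0.19 to 0.25, adjusted p from 0.0509 to 0.102), while Prkaa1, Prkaa2, Prkab1 and Prkab2 were between -0.089 and 0.067 and not called. Foxo1 rose by 0.94, and Foxo3 was at 0.027 and not called.

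**Figure D5:**
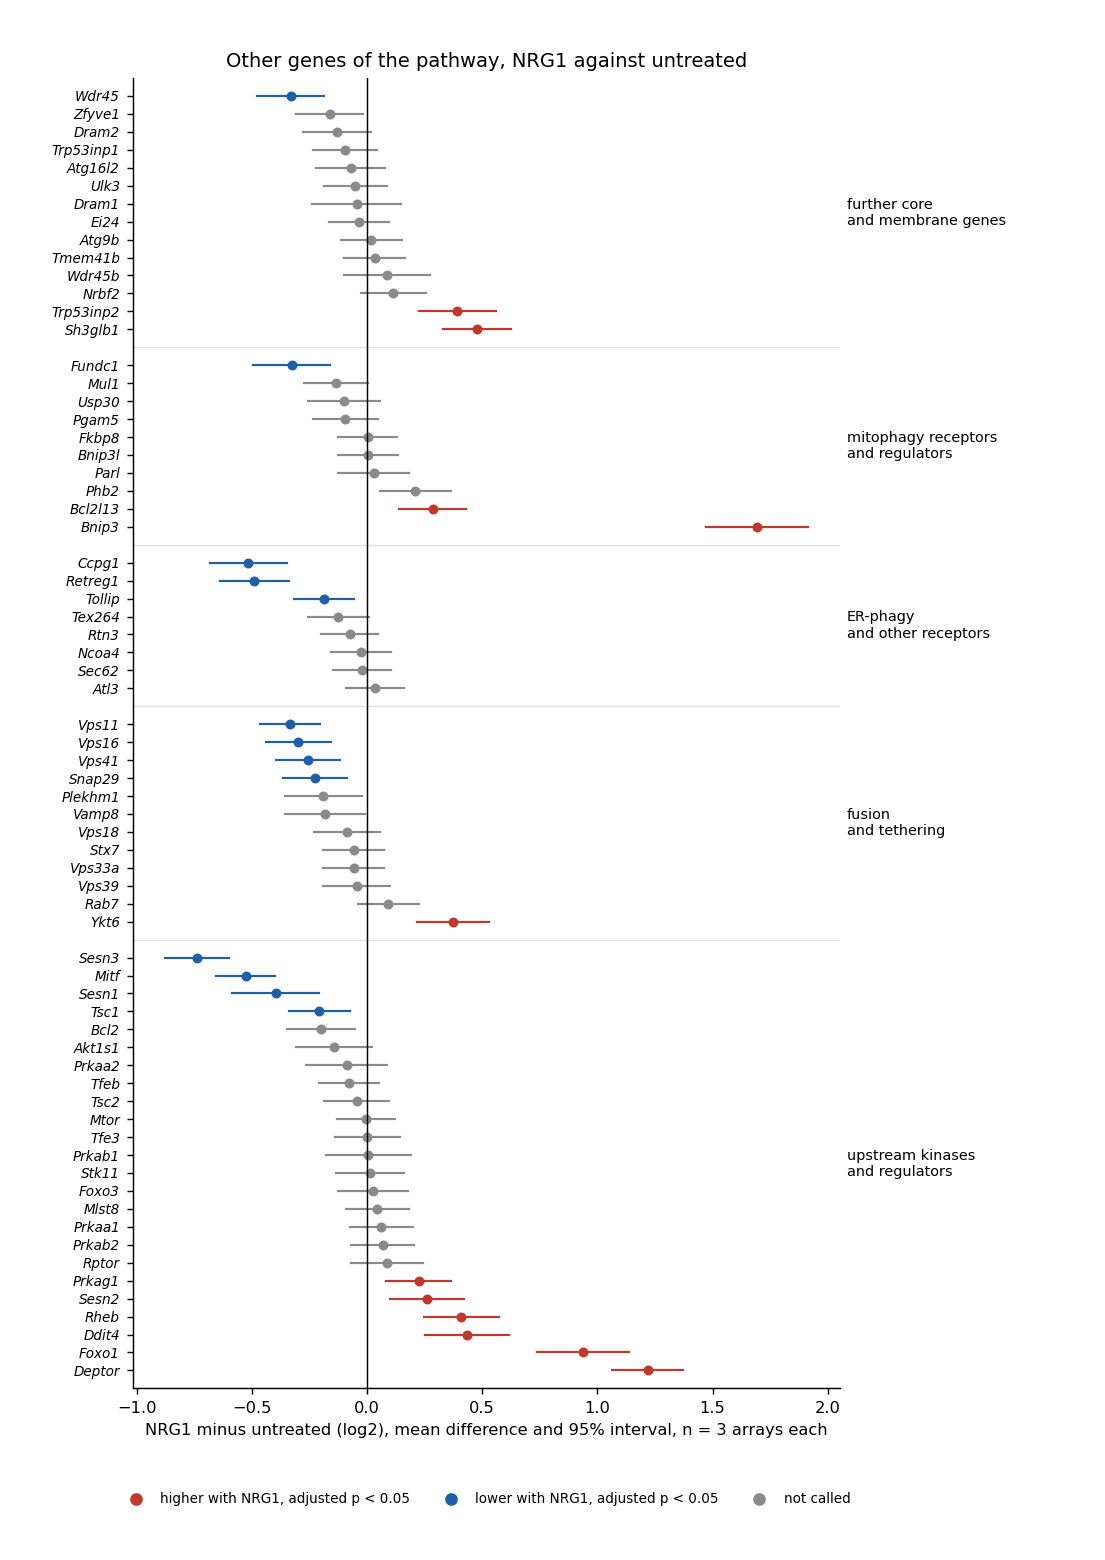
NRG1 minus untreated on the log2 scale with the 95% interval (n = 3 arrays each) for 68 other genes of the pathway in 5 lists. Bnip3 (1.69) and Deptor (1.22) lie farthest to the right. The 3 called genes of the 8 in the ER-phagy list lie left of 0, and the call of 1 of them, Tollip, ended under 9 of 15 settings.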

How the data were processed

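The deposited table holds log2 values per probe set, made by the authors with RMA and GCOS per the submitters' processing notes. Their settings, versions and genome build: not given in the sources used here. Values from 2.34 to 14.6 show the log2 scale. All 6 value columns matched a sample, and groups come from sample titles. Arrays have no depth, and 3 per group limit the precision (median SE 0.071). Of the probe sets, 21789 had 1 symbol in the platform annotation, 1621 several, and 12147 were unnamed here. Genes were tested with limma 3.58.1 in R 4.3.3 (2-sided, Benjamini-Hochberg over 19938 genes, no filter). The members and lists were chosen with earlier results of these data known. All 42 members are described, with array values for those called and those near the threshold, and called genes of the other lists. On simulated data with 200 changed genes among 19938, in 20 runs, 22% of changes of 0.25, 97.7% of 0.5 and 100% of 1 (log2) were recovered, and 6.1% of calls were false. In the data 4168 genes were called, many more than the simulation changed, so these shares may differ there. Deviations of same-numbered arrays correlated at -0.095, -0.16 and 0.074, too few values to tell whether the replicate number pairs arrays. The main fit used no pairing, and a replicate block was run as an alternative setting. Promoters and pseudogene names come from RefSeq, GRCm38.p6.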

Additional observations from a re-analysis of the deposited data

How the results depend on the processing

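Over 15 alternative settings, 6 of the 7 called autophagy genes were called throughout, 28 were called under none, and the calls of 8 (Atg14 among them) changed under at least 1. Rubcn stayed the only rise. The number of autophagy genes that fell went from 6 to 12 after quantile normalization, to 12 with genes under the median level left out, to 11 with an intensity trend and a robust prior, and to 10 with array weights. Array weights also raised the falls over all genes from 1707 to 2881. Leaving out 1 array at a time gave 5 to 7 falls and 1 rise among the autophagy genes, 9 to 12 falls and 8 to 11 rises in the other lists, and 1153 to 1801 falls and 1907 to 2596 rises over all genes. With the replicate block, 6 autophagy genes fell and 1 rose, and 1411 and 2198 of all genes did; it ended the calls of Tollip, Snap29, Tsc1 and Sesn2 (adjusted p = 0.0891, 0.0536, 0.0754 and 0.0515). Same-numbered arrays had deviations that correlated at -0.095, -0.16 and 0.074, and not every array correlated best with its own number. No call reversed in sign. Median differences of the autophagy genes ran from -0.11 (without NRG1 replicate 2) to -0.064 (without untreated replicate 2). With 3 arrays a group, changes of 0.25 on the log2 scale were mostly missed in simulated data. The simulation changed only 200 genes, whereas 4168 were called in the data, so its share missed may not hold there. In the data the called autophagy genes had absolute differences of at least 0.25, and those not called of at most 0.22. The interval of each gene not called bounds its difference. Another background correction needs probe-level signals and was not run.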

Other observations

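In the 5 lists of other pathway genes, 61 of 68 had a RefSeq promoter window, and CACGTG was found for 8 of these. They were Bnip3, Retreg1, Rheb, Vps16, Mul1, Nrbf2, Sec62 and Vps33a, of which Bnip3 and Rheb rose, Retreg1 and Vps16 fell and the other four were not called. Vps16 and Vps33a encode subunits of the HOPS and CORVET tethers, and Vps33a was at -0.058 (limma, adjusted p = 0.557). GTAAACA was found for Sesn1, which fell, and Stk11, for the kinase LKB1 upstream of the AMP-activated kinase, which was at 0.012 and not called.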
